A study of Mus musculus with 12 samples.

Results

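The genes described here belong to the NRF2 pathway, the main transcriptional defence of animal cells against oxidants and reactive chemicals, in mouse stomach organoids after Wnt inhibition. They are the 10 genes whose symbols in the count table are Nfe2l2, Keap1, Gclc, Gclm, Srxn1, Txnrd1, Slc7a11, Hmox1, G6pdx and Gpx2, out of 55421 gene rows. All 10 passed the low-count filter, as did 16152 genes in all, with 1394 to 62434 counts per member and library. Messenger RNA was sequenced from organoids, epithelial cultures in a gel matrix that were started from the stomach glands of wild-type mice, in 12 libraries that form 4 groups of 3. The groups were corpus (stomach body) organoids after Wnt inhibition, corpus organoids with vehicle, antral (stomach outlet) organoids after Wnt inhibition, and antral organoids with vehicle. Each region had 3 lines, numbered 8025, 8026 and 8028 and described as independent. Nothing in the labels says that a number shared by both regions marks the same mouse.

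Treatment started on day 4 post-passage, and RNA was taken 24 h later. The treated organoids received XAV939 (listed at 1 mM in the labels), which blocks tankyrase and so stabilizes the AXIN proteins that restrain Wnt signalling. They also lost the supplied Wnt and R-spondin and were given Noggin, an antagonist of BMP ligands, at 100 ng/mL. Vehicle organoids received DMSO in normal medium, which held 50% L-WRN (a conditioned medium that supplies Wnt, R-spondin and Noggin) and fetal bovine serum at 10% for antral and 20% for corpus lines. The effects of the inhibitor, of the withdrawn factors and of the medium that carried them cannot be told apart in this design, nor can region and serum level. The replicates are 3 lines per region. Unless a line block or a fit of 6 libraries is named, each p-value below rests on the spread within groups, pooled over all groups. The main fit did not pair the inhibited and vehicle libraries of a line, so its p-values do not measure how the response varied between lines.

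NRF2, the protein of Nfe2l2, is a transcription factor that KEAP1 holds in the cytoplasm and hands to a ubiquitin ligase for destruction. Oxidants and electrophiles modify cysteines of KEAP1, NRF2 then escapes degradation, pairs with a small MAF protein and binds antioxidant response elements near its targets. Those targets make glutathione, regenerate thioredoxin and peroxiredoxins, supply NADPH and break down heme. The lining of the stomach meets acid, oxidants and dietary chemicals, and GPX2, a glutathione peroxidase of the digestive tract, is known both as an NRF2 target and as a target of Wnt signalling.

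Library totals were 18858022 to 31656696 counts. The Wnt target Lgr5 was at 0.206 to 1.77 CPM (counts scaled to library size) in inhibited corpus, against 42.4 to 51.1 CPM with vehicle, and at 1.25 to 1.83 CPM in inhibited antrum, against 40.0 to 48.8 CPM with vehicle. Summed CPM of 6 epithelial markers was 16501 to 18702 in inhibited and 8696 to 10570.2 in vehicle libraries, and the 4 pit-cell markers summed to 1521 to 4037 CPM in inhibited and 208 to 331 CPM in vehicle libraries. The 2 parietal-cell markers (of the acid-secreting cells of the corpus) summed to at most 1.56 CPM in every library. The 4 chief-cell markers, of which 3 were in the table, summed to 11 to 34.2 CPM in inhibited and 84.1 to 362 CPM in vehicle libraries. Fibroblast, endothelial and red blood cell markers summed to at most 1.47 CPM in any library. Of the 6 immune markers Adgre1 was at 0 counts in all 12 libraries, and the sum of 55.5 to 122 CPM came almost wholly from Cd14 and Cd68. The part of these shifts in the changes below was not tested, and in such bulk samples fewer cells of a type and less RNA per cell cannot be told apart.

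Promoter sequences are shown because the pathway is defined by a DNA element. RefSeq promoters on GRCm38.p6, each running from 250 bases before to 50 bases after a start site, were matched by symbol for 8 of the 10 members (10 promoters, of which 3 belong to Txnrd1); Gclc and Hmox1 had no entry. Both strands were searched for the core of the antioxidant response element, TGACNNNGC. It occurred in promoters of 5 of the 8 members, Nfe2l2, Srxn1, Gclm, Txnrd1 and G6pdx, and in promoters of 14.0% of 27025 genes (12.4% of their 32851 promoters). Keap1, Slc7a11 and Gpx2 had no match, so members that rose in corpus are found both with and without one. The promoter of each of the 8 is printed, for Txnrd1 the one with the match. Capitals mark the match in each sequence, printed 5′ to 3′ on the gene's strand, so that a match on the other strand reads as the reverse complement.

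Nfe2l2 (chr2:75704614-75704913, minus strand): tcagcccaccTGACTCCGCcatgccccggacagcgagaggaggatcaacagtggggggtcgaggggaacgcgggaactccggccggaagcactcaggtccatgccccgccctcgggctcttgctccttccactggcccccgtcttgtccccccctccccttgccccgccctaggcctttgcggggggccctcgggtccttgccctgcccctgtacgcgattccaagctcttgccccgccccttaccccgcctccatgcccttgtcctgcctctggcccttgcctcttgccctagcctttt
Gclm (chr3:122245307-122245606, plus strand): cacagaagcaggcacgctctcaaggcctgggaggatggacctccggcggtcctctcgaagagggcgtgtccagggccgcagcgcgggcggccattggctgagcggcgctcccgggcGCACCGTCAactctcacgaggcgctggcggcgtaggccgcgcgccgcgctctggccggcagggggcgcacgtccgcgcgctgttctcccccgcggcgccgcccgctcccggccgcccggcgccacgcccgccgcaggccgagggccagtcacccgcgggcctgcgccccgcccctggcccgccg
Srxn1 (chr2:152105274-152105573, plus strand): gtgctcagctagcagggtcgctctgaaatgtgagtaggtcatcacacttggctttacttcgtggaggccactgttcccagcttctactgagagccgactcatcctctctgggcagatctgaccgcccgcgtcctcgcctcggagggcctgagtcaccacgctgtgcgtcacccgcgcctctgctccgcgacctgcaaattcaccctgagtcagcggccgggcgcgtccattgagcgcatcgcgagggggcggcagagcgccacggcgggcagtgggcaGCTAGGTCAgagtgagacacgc
Txnrd1 (chr10:82858956-82859255, plus strand): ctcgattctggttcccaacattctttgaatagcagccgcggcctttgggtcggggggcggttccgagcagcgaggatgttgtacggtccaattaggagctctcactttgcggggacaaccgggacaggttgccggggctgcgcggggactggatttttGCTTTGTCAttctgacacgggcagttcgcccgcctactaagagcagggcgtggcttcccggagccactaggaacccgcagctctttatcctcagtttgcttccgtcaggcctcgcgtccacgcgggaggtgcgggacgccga
G6pdx (chrX:74428831-74429130, minus strand): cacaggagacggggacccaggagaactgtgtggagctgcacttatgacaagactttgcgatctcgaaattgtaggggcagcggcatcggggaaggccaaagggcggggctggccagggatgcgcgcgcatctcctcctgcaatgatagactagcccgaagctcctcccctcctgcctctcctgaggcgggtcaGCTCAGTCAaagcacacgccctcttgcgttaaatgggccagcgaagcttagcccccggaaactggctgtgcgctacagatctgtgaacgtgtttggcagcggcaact
Keap1 (chr9:21239283-21239582, minus strand): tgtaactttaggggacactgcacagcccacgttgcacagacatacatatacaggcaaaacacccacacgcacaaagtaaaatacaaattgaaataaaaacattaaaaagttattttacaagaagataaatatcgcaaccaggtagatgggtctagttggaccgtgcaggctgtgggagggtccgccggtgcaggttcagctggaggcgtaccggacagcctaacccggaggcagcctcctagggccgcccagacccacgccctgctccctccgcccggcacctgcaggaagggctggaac
Slc7a11 (chr3:50443564-50443863, minus strand): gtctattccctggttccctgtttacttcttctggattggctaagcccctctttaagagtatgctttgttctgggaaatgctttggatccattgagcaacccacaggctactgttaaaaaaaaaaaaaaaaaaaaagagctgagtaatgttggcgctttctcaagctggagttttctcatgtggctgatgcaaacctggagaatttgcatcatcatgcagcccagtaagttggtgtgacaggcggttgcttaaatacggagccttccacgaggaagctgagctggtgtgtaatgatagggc
Gpx2 (chr12:76795505-76795804, minus strand): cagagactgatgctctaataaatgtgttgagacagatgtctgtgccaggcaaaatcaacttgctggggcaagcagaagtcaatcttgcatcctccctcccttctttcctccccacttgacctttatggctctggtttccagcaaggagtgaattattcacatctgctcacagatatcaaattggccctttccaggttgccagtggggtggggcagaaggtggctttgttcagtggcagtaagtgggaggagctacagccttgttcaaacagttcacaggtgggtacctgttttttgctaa

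The first base of the match lay 240 bases before the start site in Nfe2l2, 134 before it in Gclm, 92 before it in the middle of the 3 Txnrd1 promoters, 57 before it in G6pdx and 29 after it in Srxn1. The Srxn1 promoter also held the AP-1 motif TGANTCA at 102 and at 45 bases before the start, a motif whose letters resemble the antioxidant response element and which occurred in promoters of 8.97% of genes (7.81% of all promoters). At 45 bases before the start the letters run TGAGTCAGC. That stretch departs from the searched core only by G in place of C, so the search left it unmarked. The core bound by the aryl hydrocarbon receptor, GCGTG, occurred in promoters of 5 of the 8 members (Srxn1, Gclm, Keap1, Txnrd1 and G6pdx) and of 35.2% of genes (32.4% of all promoters). The core bound by the TCF factors of the Wnt pathway, CTTTGAA or CTTTGAT, occurred in 1 member, Txnrd1, and in promoters of 9.88% of genes (8.65% of all promoters). The windows of Gpx2 and Slc7a11 held none of the 4 motifs. These matches describe letters in a window of 300 bases and show nothing of binding.

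After Wnt inhibition 9 of the 10 members rose in corpus and Gpx2 fell. In antrum 5 rose (Nfe2l2, Gclc, Srxn1, Txnrd1 and G6pdx), Gpx2 fell, and Keap1, Gclm, Slc7a11 and Hmox1 were higher in the inhibited group without passing the test (edgeR quasi-likelihood test, Benjamini-Hochberg adjustment over 16152 genes, threshold 0.05). Over all tested genes, corpus had 15.5% that rose and 15.4% that fell, and antrum 16.3% and 13.4%. The inhibited and vehicle libraries did not overlap in CPM for any of the 10 members in either region, where 40.8% of tested genes in corpus and 48.7% in antrum were likewise separate. The median log2 change of the members was 0.49 in corpus and 0.36 in antrum, against -0.037 and -0.044 over all tested genes.

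Scaling by total counts left 4 of the 10 corpus calls (Nfe2l2, Gclc, Srxn1 and Gpx2) and 5 of the 6 antral calls, without Txnrd1. It moved the median of all genes in corpus to -0.193 and the share of rises among all corpus calls to 26.4%, against 50.1% with TMM scaling. Among antral calls the share of rises was 44.4% with total counts and 43.6% with upper quartile scaling, against 55% with TMM scaling. With both corpus libraries of line 8026 left out, Nfe2l2, Srxn1, G6pdx and Gpx2 were the 4 members that passed in corpus.

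**Figure D1:**
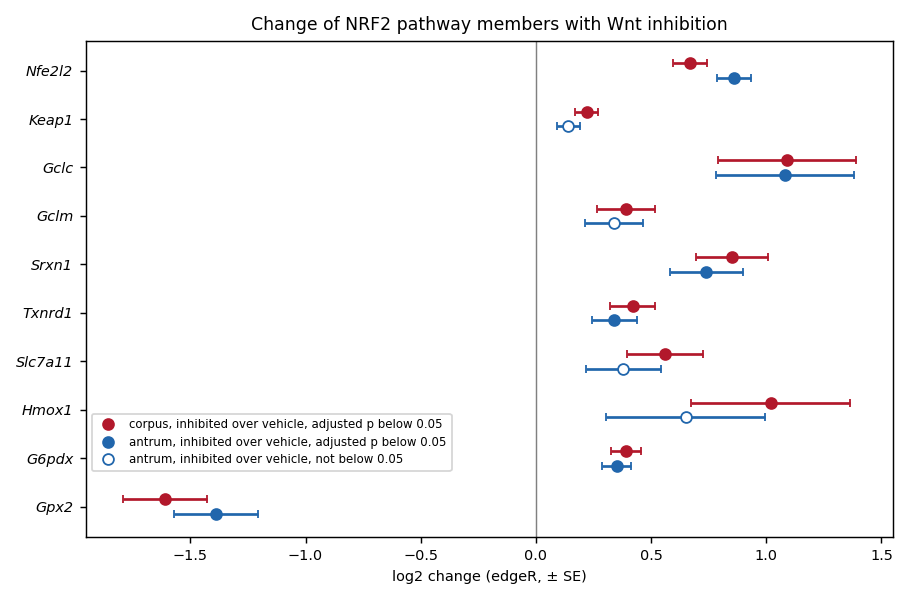
Log2 change of each member after Wnt inhibition over vehicle, with its standard error, from the edgeR fit of 12 libraries; red is corpus, blue is antrum, and open circles did not reach an adjusted p of 0.05. Only Gpx2 lies left of 0, in both regions, and the open circles are the antral values of Keap1, Gclm, Slc7a11 and Hmox1.

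Nfe2l2 encodes NRF2 itself (ENSMUSG00000015839, chr2:75675513-75704641, protein-coding, GRCm38). It had 749, 793 and 879 CPM in inhibited corpus libraries of lines 8025, 8026 and 8028, against 496, 477 and 548 CPM in corpus vehicle libraries. All inhibited libraries were well above all vehicle libraries, and the mean rose 1.59-fold (log2 0.67 ± 0.0735 (SE), adjusted p = 5.95e-05). In antrum it had 899, 831 and 874 CPM in inhibited libraries, against 486, 469 and 480.1 CPM with vehicle, a rise of 1.82-fold (log2 0.86 ± 0.0737, adjusted p = 1.04e-05). The line-by-line log2 ratios of inhibited over vehicle stayed within 0.59 to 0.89 over the 6 lines.

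Keap1 encodes the sensor that keeps NRF2 low (ENSMUSG00000003308, chr9:21229730-21239361). It had 93.8, 95 and 99.4 CPM in inhibited corpus libraries, against 82.9, 81.2 and 82.8 CPM with vehicle. The groups were separate but close, and the rise was 1.17-fold (log2 0.22 ± 0.0492, adjusted p = 0.00515). With total-count scaling this log2 change was 0.07 (adjusted p = 0.595). In antrum Keap1 had 92.2, 95 and 92.7 CPM in inhibited libraries, against 82.2, 84 and 88.2 CPM with vehicle (log2 0.14 ± 0.0493, adjusted p = 0.0563). The antral difference did not pass the test; it did with RLE scaling (adjusted p = 0.0274), with DESeq2 (0.00449) and without the antral vehicle library of line 8028 (0.0414).

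The genes of glutathione synthesis gave the largest rise of the set. Gclc, the catalytic subunit of glutamate-cysteine ligase, which carries out the rate-limiting step (ENSMUSG00000032350, chr9:77754535-77794485), had 1500.3, 1448 and 807 CPM in inhibited corpus libraries, against 597, 601 and 561 CPM with vehicle. Line 8028 was far below the other inhibited lines but still above every vehicle library, and the mean rose 2.13-fold (log2 1.09 ± 0.299, adjusted p = 0.0166). In antrum Gclc had 919.7, 847 and 1036 CPM after inhibition, against 456, 243 and 631 CPM with vehicle. Here the vehicle libraries were the uneven ones, with line 8026 lowest, and the rise was 2.11-fold (log2 1.08 ± 0.299, adjusted p = 0.0189). The call of Gclc held under 14 of 19 alternatives in corpus and 15 of 20 in antrum. Its adjusted p rose above 0.05 without a low-count filter (0.0712 in corpus and 0.0758 in antrum). In corpus it also did without inhibited line 8025 (0.0564) or 8026 (0.0552) and without both libraries of line 8025 (0.116) or 8026 (0.126). In antrum it did without inhibited line 8028 (0.0586), without both libraries of line 8025 (0.0979) or 8026 (0.0565), and in a fit of the 6 antral libraries alone (0.0533).

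Gclm, the modifier subunit that makes the same ligase more efficient (ENSMUSG00000028124, chr3:122245557-122270732), had 529.7, 510.4 and 401 CPM in inhibited corpus libraries, against 359, 358 and 380.1 CPM with vehicle. Again line 8028 was the low inhibited library, and the rise was 1.31-fold (log2 0.39 ± 0.126, adjusted p = 0.0344). In antrum Gclm had 371, 360.1 and 378 CPM after inhibition, against 294, 238 and 342 CPM with vehicle. This difference did not pass (log2 0.34 ± 0.126, adjusted p = 0.0614). Its adjusted p was under the threshold when line was added as a block (0.03), with DESeq2 (0.0283), in a fit of the 6 antral libraries alone (0.0443) and without vehicle line 8028 (0.0162). In corpus the call held under 12 of 19 alternatives. It was lost, among others, without any 1 of 4 libraries, inhibited 8025 (0.101) or 8026 (0.0968) and vehicle 8025 (0.0755) or 8026 (0.096).

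Slc7a11, the transporter xCT that imports the cystine from which glutathione is made (ENSMUSG00000027737, chr3:49892526-50443614), had 293, 334 and 206 CPM in inhibited corpus libraries, against 170.3, 199 and 198 CPM with vehicle. The lowest inhibited library, line 8028, was only just above the highest vehicle library, and the group rose 1.47-fold (log2 0.56 ± 0.164, adjusted p = 0.024). The antral values were 222, 231 and 219.9 CPM after inhibition, against 187, 139 and 193 CPM with vehicle (log2 0.38 ± 0.164, adjusted p = 0.105). That antral difference did not pass. The corpus call held under 11 of 19 alternatives. It was lost, among others, without inhibited line 8025 (0.0622) or 8026 (0.0947) and without vehicle line 8025 (0.075) or 8026 (0.051).

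Both members of the thioredoxin branch rose in both regions. Srxn1, sulfiredoxin, which repairs over-oxidized peroxiredoxins (ENSMUSG00000032802, chr2:152105516-152111376), had 215, 237 and 188 CPM in inhibited corpus libraries, against 106, 119.7 and 129 CPM with vehicle. In antrum it had 189, 199.7 and 203 CPM after inhibition, against 117, 88.7 and 149 CPM with vehicle. All inhibited libraries exceeded all vehicle libraries within each region. The rise was 1.81-fold in corpus (log2 0.85 ± 0.157, adjusted p = 0.00181) and 1.67-fold in antrum (log2 0.74 ± 0.157, adjusted p = 0.00449). Srxn1 passed under all 19 alternatives in corpus and all 20 in antrum.

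Txnrd1, the cytosolic thioredoxin reductase, a selenoprotein that spends NADPH to reduce thioredoxin (ENSMUSG00000020250, chr10:82833951-82897712), had 1002, 925 and 791 CPM in inhibited corpus libraries, against 668, 677 and 685 CPM with vehicle. The vehicle lines lay within a narrow range and the inhibited lines all above it, with a rise of 1.34-fold (log2 0.42 ± 0.0976, adjusted p = 0.00697). In antrum Txnrd1 had 761, 719 and 748 CPM after inhibition, against 576, 520.2 and 664 CPM with vehicle, and rose 1.27-fold (log2 0.34 ± 0.0976, adjusted p = 0.0217). The antral call held under 12 of 20 alternatives. Among others, it was lost without inhibited line 8025 (0.0693) or 8028 (0.0578) and without vehicle line 8025 (0.0585) or 8026 (0.0692). Upper quartile (0.0561) and total-count scaling (0.0761) lost it too.

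Hmox1, heme oxygenase 1, which degrades heme and answers to NRF2 as well as to other stress factors (ENSMUSG00000005413, chr8:75093621-75100589), had the widest spread within a group. It had 284, 295 and 131 CPM in inhibited corpus libraries, against 117, 126 and 108 CPM with vehicle. Line 8028 after inhibition was barely above the vehicle libraries, and the mean rose 2.02-fold (log2 1.02 ± 0.345, adjusted p = 0.0443). That call held under 8 of 19 alternatives: it was lost, among others, with the line as a block (0.0661) and without any 1 of 5 libraries, inhibited 8025 (0.132) or 8026 (0.14) and vehicle 8025 (0.0965), 8026 (0.0892) or 8028 (0.11). In antrum Hmox1 had 187, 159 and 193 CPM after inhibition, against 132, 56.7 and 155 CPM with vehicle, and the difference did not pass (log2 0.65 ± 0.344, adjusted p = 0.179). Line 8026 was well below the other antral vehicle lines, and line 8028 with vehicle lay just under the lowest inhibited library.

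G6pdx, glucose-6-phosphate dehydrogenase, which feeds the pentose phosphate pathway and makes NADPH (ENSMUSG00000031400, chrX:74409483-74429194), had 331, 329.9 and 308 CPM in inhibited corpus libraries, against 236, 234 and 267 CPM with vehicle. In antrum it had 306, 298 and 299 CPM after inhibition, against 248, 236 and 226 CPM with vehicle. The inhibited libraries were above the vehicle libraries throughout, and the spread within each group was small. The rise was 1.31-fold in corpus (log2 0.39 ± 0.0647, adjusted p = 0.000862) and 1.27-fold in antrum (log2 0.35 ± 0.0647, adjusted p = 0.00196). Ikbkg, a gene on the opposite strand at 63.2 to 146 CPM, overlaps G6pdx, and without a stated strand setting reads of the shared stretch cannot be told apart; the retrogene copy G6pd2 was at most 0.187 CPM.

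Gpx2 (ENSMUSG00000042808, chr12:76792333-76795554), which reduces hydroperoxides with glutathione, moved the other way from the remaining members. It had 509.5, 495 and 886 CPM in inhibited corpus libraries, against 1850.2, 1869.7 and 2068 CPM with vehicle, and 729, 812 and 733 CPM in inhibited antral libraries, against 2047, 1933 and 1988 CPM with vehicle. The inhibited libraries lay far below the vehicle libraries in both regions, with corpus line 8028 the highest of the inhibited ones. The mean was 3.06-fold lower in inhibited corpus (log2 -1.61 ± 0.184, adjusted p = 8.23e-05) and 2.62-fold lower in inhibited antrum (log2 -1.39 ± 0.183, adjusted p = 0.00021). Nfe2l2, Srxn1 and Gpx2 were the 3 members that passed under all alternatives in both regions. Fntb, on the opposite strand at 15.6 to 25.7 CPM, overlaps Gpx2.

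**Figure D2:**
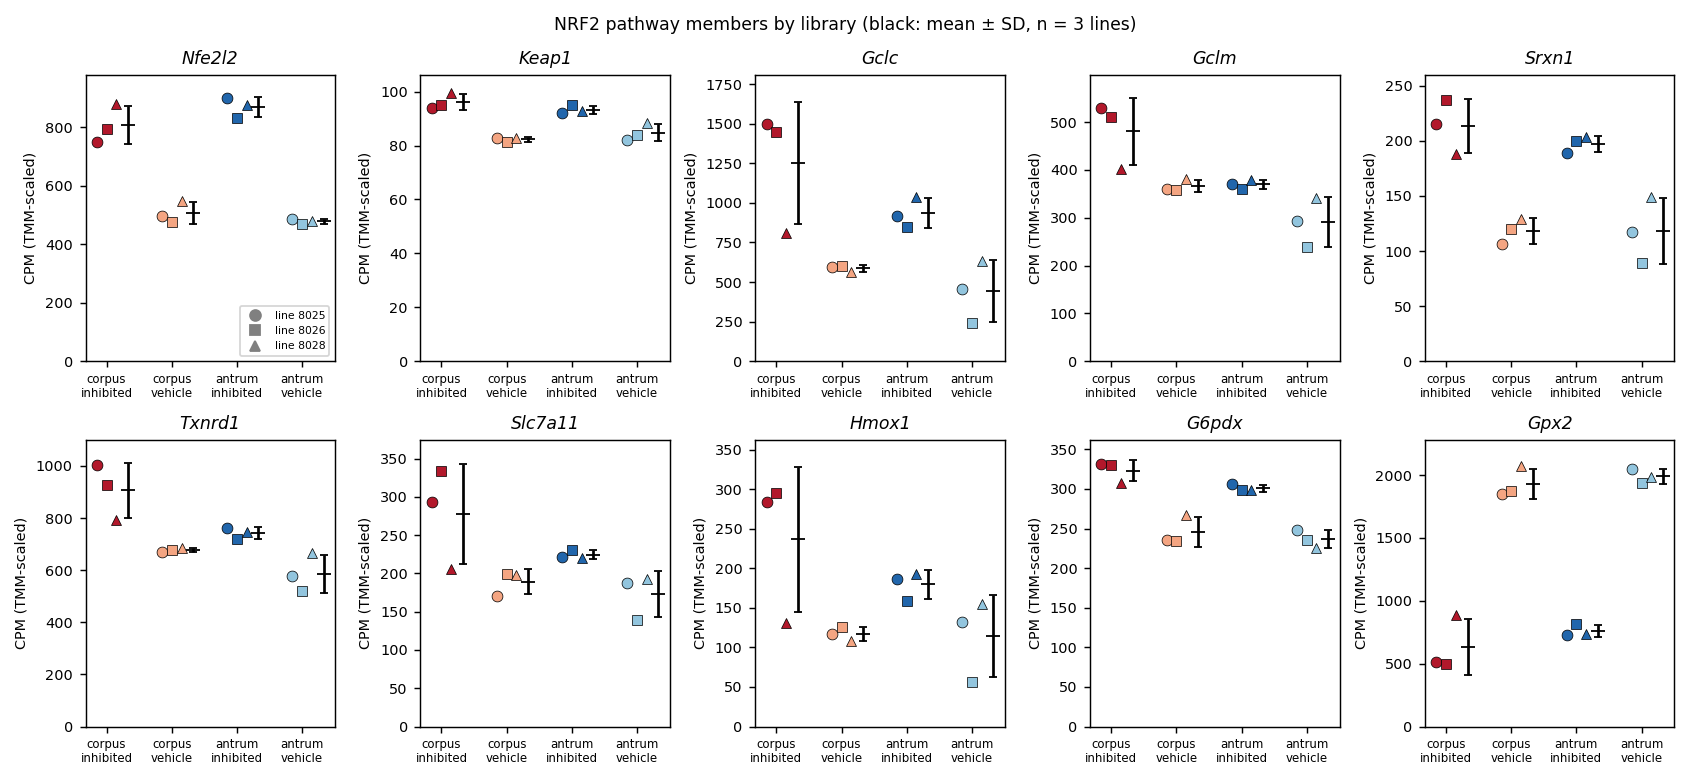
CPM (TMM-scaled) of the 10 members in each library, with inhibited left of vehicle for each region; circles, squares and triangles are lines 8025, 8026 and 8028, and black bars are the mean ± SD of 3 lines. Vertical axes start at 0 and differ between panels. In corpus the inhibited triangle (line 8028) is the low one for Gclc, Gclm, Srxn1, Txnrd1, Slc7a11 and Hmox1, and in antrum the vehicle square (line 8026) is.

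Per kilobase of annotated exon, Gpx2 stood first in both vehicle groups, at 599 CPM per kb in corpus and 617 CPM per kb in antrum. After inhibition Gclc had the highest group mean, at 332 CPM per kb in corpus and 248 CPM per kb in antrum. In inhibited antrum Gclc, Gpx2 (235) and Nfe2l2 (229) lay within the spread of Gclc between lines, so their order is not settled. Nor is the first place in inhibited corpus: in line 8028 Gclc, at 214 CPM per kb, was below Gpx2 (275) and Nfe2l2 (232), while in lines 8025 and 8026 it was above both, at 398 and 385. In the corpus inhibited group the spread of Gpx2 (196) likewise covered its neighbours Nfe2l2 (213) and Hmox1 (135), and in the antral vehicle group that of Gclc (118) covered Nfe2l2 (126) and Txnrd1 (82.8). Keap1 and Slc7a11 were lowest in every group, at 17.5 to 20.5 and 12.4 to 20.0 CPM per kb. The exon lengths join the exons of all annotated transcripts, so a gene with long alternative ends is understated on this scale.

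A group of 6 members, called the 6 targets below (Gclc, Gclm, Srxn1, Txnrd1, Slc7a11 and Hmox1), often lay on the same side of the group mean within a library. No stated rule gave this group, which leaves out G6pdx and Gpx2, so the shared side describes the 6 and is no test. In the corpus inhibited library of line 8028 all 6 lay below their group mean, by a mean of -0.39 in log2 CPM, and in lines 8025 and 8026 of that group all 6 lay above it, by 0.18 and 0.21. In the antral vehicle group all 6 were below the mean in line 8026, by a mean of -0.46, and above it in line 8028, by 0.36. In the other 2 groups the mean deviations ran from -0.06 to 0.05. Nfe2l2, Keap1 and G6pdx deviated by at most 0.13 in any library, while Gpx2 went the other way from the targets in the corpus inhibited group, at 0.55 above the mean in line 8028. Line by line, the log2 ratio of inhibited over vehicle for Gclc was 1.33, 1.27 and 0.52 in corpus lines 8025, 8026 and 8028, and 1.01, 1.80 and 0.72 in the antral lines. For all 6 targets the smallest corpus ratio was that of line 8028 and the largest antral ratio that of line 8026.

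Some other measures differed in these libraries as well, but most of them not in the same way in both. In the corpus inhibited library of line 8028 the Wnt target Axin2 was at 18.7 CPM, against 3.71 and 5.39 CPM in lines 8025 and 8026 of the same group, the pit markers summed to 1521 CPM, against 3199.7 and 2513 CPM, and Cd68 was at 14.9 CPM, against 50.6 and 35.7 CPM. In the antral vehicle library of line 8026 Cd68 was at 9.56 CPM, against 19.8 and 27.2 CPM in lines 8025 and 8028, while the pit markers (309, against 252 and 309 CPM) and Axin2 (79.0, against 70.1 and 77.4 CPM) did not set it apart. Cd14, of the same immune list as Cd68, was lowest in the corpus library (39.6, against 69.6 and 50.0 CPM) but not in the antral one (53.6, against 61.6 and 47.8 CPM). The share of ribosomal-RNA-like counts in the antral vehicle group was 0.92% in line 8026, 17.2% in line 8025 and 6.87% in line 8028. In the corpus inhibited group it was instead highest in line 8028, at 2.7%, against 1.16% and 1.48% in lines 8025 and 8026. The part of these measures in the deviations was not tested. With the ribosomal-RNA-like genes removed before scaling, the same 6 members passed in antrum and the log2 change of Gclc was 1.08. That removal hardly changed the fit (median log2 change of all tested genes in antrum -0.044 with and without it), so it cannot show what the differing shares mean for the members.

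Genes that shared this line-to-line pattern were sought among 11021 genes at a mean of 5 CPM or more, as the Pearson correlation over the 12 libraries between each gene's deviations from its group means and those of an index of Gclc, Gclm, Srxn1, Txnrd1 and Slc7a11. The nearest were Slc1a4, a neutral amino acid transporter (r = 0.989, Spearman's rho = 0.979), Car2, a carbonic anhydrase (r = 0.981, rho = 0.909), Fam129a (r = 0.979, rho = 0.944), Tsc22d3, a glucocorticoid-induced gene (r = 0.974, rho = 0.993), and Cyp2s1, a cytochrome P450 (r = 0.971, rho = 0.825). Without the antral vehicle library of line 8026 and the corpus inhibited library of line 8028 the same genes correlated at 0.918 to 0.969. The most opposite were Dnajb5 (r = -0.96, rho = -0.916) and Ntmt1 (r = -0.949, rho = -0.902). Among the members not in the index, Hmox1 followed it (r = 0.954, rho = 0.874, and r = 0.835 without the same 2 libraries). The others did not, with r = 0.19 for G6pdx, -0.0671 for Keap1, -0.257 for Nfe2l2 and -0.547 for Gpx2. Over the levels themselves, which also carry the treatment difference, the nearest genes were Tsc22d3 (r = 0.987), Selenbp1 (r = 0.983), 9530034E10Rik (r = 0.977), Gm13056 (r = 0.976) and Cat, catalase (r = 0.975). The libraries share depth and composition differences, and these values are descriptions of the best of many genes.

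**Figure D3:**
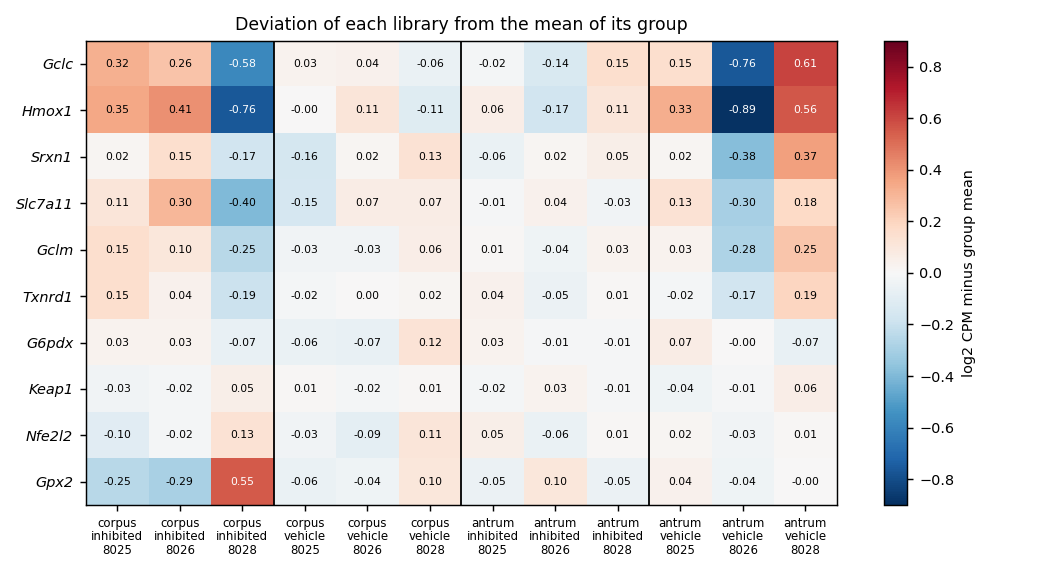
Difference of each library from the mean of its group, in log2 CPM, for the 10 members (rows) in the 12 libraries (columns), with black lines between groups. The corpus inhibited library of line 8028 and the antral vehicle library of line 8026 are below the mean (blue) for the first 6 genes, by up to -0.76 and -0.89 for Hmox1.

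Antrum was set against corpus to ask whether the members differed between the regions. None of the members passed in vehicle, where 1 of 10 had an unadjusted p below 0.05 (Gclm, log2 -0.33 ± 0.126, adjusted p = 0.256) and 0.198% of all tested genes were called by edgeR. None passed after inhibition, where 2 had an unadjusted p below 0.05, Gclm (log2 -0.38 ± 0.126, adjusted p = 0.413) and Txnrd1 (log2 -0.29 ± 0.0976, adjusted p = 0.425), and 0.0619% of all genes were called. DESeq2 and limma-voom called no member in either comparison. The 95% intervals of antrum over corpus in vehicle were narrow for Nfe2l2 (-0.25 to 0.08), Keap1 (-0.07 to 0.16) and G6pdx (-0.20 to 0.10) and wide for Hmox1 (-0.83 to 0.76) and Gclc (-1.09 to 0.28), so sizeable differences of the last pair would not have been detectable.

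The comparison after inhibition turned on 1 library. Without the corpus inhibited library of line 8028, Txnrd1 (log2 -0.38, adjusted p = 0.0271), Slc7a11 (-0.48, 0.0345) and Gclm (-0.49, 0.0257) were lower and Gpx2 (0.59, 0.00311) was higher in antrum than in corpus, and 1883 genes were called in all. The difference between regions in the response itself, fitted as an interaction, passed for none of the 10 members with edgeR, DESeq2 or limma-voom, with 0 at an unadjusted p below 0.05 and 0.00619% of all tested genes called. Its 95% interval was -0.05 to 0.43 for Nfe2l2, -0.36 to 0.81 for Gpx2, -0.98 to 0.95 for Gclc and -1.48 to 0.75 for Hmox1 in log2 units. The members that passed in corpus alone are therefore not shown to respond differently in antrum.

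Genes around the members were counted in lists by function, to be read against the 15.5% of all tested genes that rose and 15.4% that fell in corpus, and the 16.3% and 13.4% in antrum. The lists were chosen with earlier results of these data known, so their counts are descriptions and no independent test. Of 18 genes of glutathione synthesis and use, 4 of them members, corpus had 9 that rose and 5 that fell, and antrum 7 and 4 (median log2 change 0.34 in both). These counts include the members Gclc, Gclm and Slc7a11 among the corpus rises, Gclc among the antral rises and Gpx2 among the falls of both regions. Gss, glutathione synthetase, which completes the molecule, rose (corpus 0.82 ± 0.0805, adjusted p = 2.78e-05; antrum 1.00 ± 0.0809, 7.35e-06). Gsr, the reductase that recycles oxidized glutathione, rose too (corpus 0.36 ± 0.0611, 0.00103; antrum 0.46 ± 0.0612, 0.000223), as did Gpx1, the ubiquitous glutathione peroxidase (corpus 0.73 ± 0.104, antrum 0.85 ± 0.104). The glutathione-degrading enzymes Chac1 (corpus 1.51 ± 0.226, antrum 0.74 ± 0.224) and Chac2 (corpus 0.55 ± 0.0923, antrum 0.55 ± 0.0933) rose as well. With total-count scaling 10 of the 14 corpus calls and 10 of the 11 antral calls were kept. Single libraries mattered more: 5 rose and 3 fell in corpus without inhibited line 8026 (8 of 14 calls kept), 5 and 4 without inhibited line 8025, and 6 and 3 without vehicle line 8026. In antrum 6 rose and 1 fell without inhibited line 8026 (6 of 11 kept), and 5 and 2 without inhibited line 8025 or 8028.

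The glutathione transferases, which attach glutathione to foreign and reactive compounds, rose in most cases: corpus had 12 of 22 that rose and 1 that fell (median 0.58), and antrum 16 and 1 (median 1.1). Gsta1 averaged 1704 ± 324 CPM in inhibited and 251 ± 27.5 CPM in vehicle corpus (SD, n = 3 each; log2 2.76 ± 0.237, adjusted p = 1.3e-05), and 1466 ± 64 CPM in inhibited and 168 ± 64.2 CPM in vehicle antrum (log2 3.13 ± 0.241, 5.77e-06). Gstm3 changed by 2.38 ± 0.19 in corpus and 3.61 ± 0.203 in antrum, Gsta4 by 1.99 ± 0.136 and 2.29 ± 0.138, Gstm1 by 1.51 ± 0.134 and 2.28 ± 0.137, and the membrane-bound Mgst3 by 1.91 ± 0.097 and 2.14 ± 0.098. The Gsta, Gstm and Gstp genes are closely related within their families, so the split of reads among them is uncertain.

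**Figure D4:**
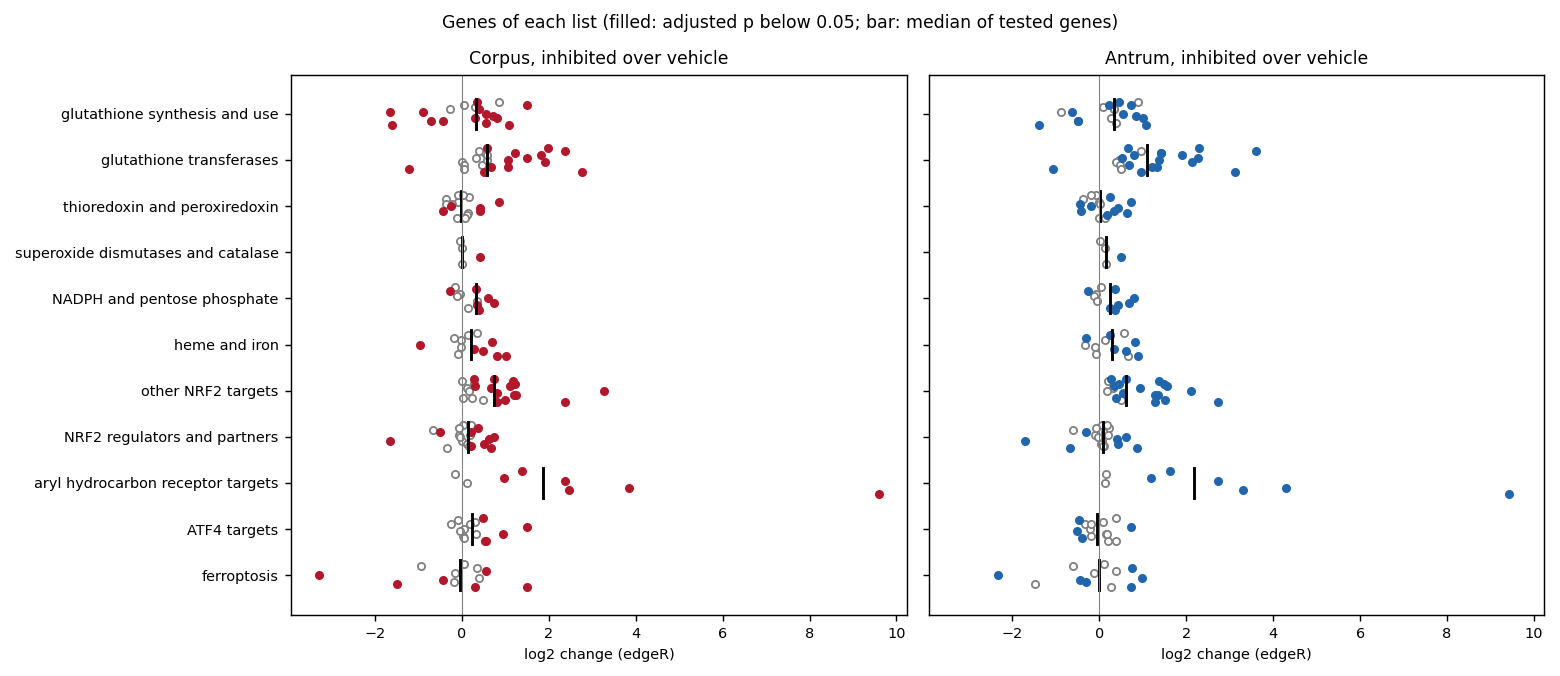
Log2 change after Wnt inhibition over vehicle for each tested gene of the 11 lists, in corpus (left) and antrum (right); filled circles reached an adjusted p of 0.05, open circles did not, and black bars are list medians. The bars of the glutathione transferases, other NRF2 targets and aryl hydrocarbon receptor targets lie farthest to the right, and those of the thioredoxin and ferroptosis lists lie near 0.

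Some of these genes were called between regions in the main fit, but the calls depended on the setting. With vehicle, 3 of the 22 transferases were lower in antrum than in corpus, where 0.198% of all tested genes were called in either direction; they are named after their values were seen. Gstm1 averaged 239 ± 38.6 CPM in antral and 409.8 ± 26.3 CPM in corpus vehicle libraries (log2 -0.78 ± 0.132, adjusted p = 0.0493), Gstm3 averaged 21.7 ± 5.58 CPM in antral and 47.1 ± 6.15 CPM in corpus vehicle libraries (log2 -1.12 ± 0.19, adjusted p = 0.0493) and Gstm6 averaged 1.95 ± 0.261 CPM in antral and 4.72 ± 1.04 CPM in corpus vehicle libraries (log2 -1.27 ± 0.209, adjusted p = 0.0458). All 3 lay close to the threshold, and no transferase was called with RLE or upper quartile scaling or with limma-voom, against 5 with DESeq2; none was called without vehicle line 8025 or 8026 of either region. For the difference in response none of the 22 passed, but 3 did with the line as a block and 1 with DESeq2, each with the higher change in antrum.

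Further known NRF2 targets outside the 10 members rose in most cases, 14 of 21 in corpus and 16 of 21 in antrum, and none fell (medians 0.74 and 0.61). Nqo1, the quinone reductase often used as a readout of NRF2, averaged 687 ± 176 CPM in inhibited and 133 ± 4.42 CPM in vehicle corpus (log2 2.37 ± 0.17, adjusted p = 4.3e-06), and 575 ± 21.5 CPM in inhibited and 86.6 ± 13.9 CPM in vehicle antrum (log2 2.73 ± 0.173, 1.95e-06). The aldo-keto reductase Akr1b8 rose by 1.20 ± 0.12 and 1.36 ± 0.121 in corpus and antrum, the carboxylesterase Ces2g by 0.99 ± 0.096 and 1.5 ± 0.0976, Ugdh, which makes UDP-glucuronic acid, by 1.19 ± 0.168 and 1.38 ± 0.169, and Htatip2 by 0.68 ± 0.0861 and 0.93 ± 0.0871. With total counts 11 of the 14 corpus and 12 of the 16 antral calls were kept. With vehicle lines 8025 and 8028 left out, 12 of those 16 antral calls were kept.

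The other enzyme lists had medians nearer 0. Of 16 thioredoxin and peroxiredoxin genes, 2 of them members, corpus had 3 that rose and 2 that fell, and antrum 6 and 3 (medians -0.03 and 0.00). The members Srxn1 and Txnrd1 were among the rises in each region, so Prdx5 was the only other rise in corpus. The corpus shares, 18.8% up and 12.5% down, were near those of all tested genes. Prdx5 rose (corpus 0.41 ± 0.107, adjusted p = 0.013; antrum 0.44 ± 0.107, 0.00962), while Prdx2 (corpus -0.25 ± 0.0612, antrum -0.20 ± 0.0612) and the stress protein Sesn1 (corpus -0.43 ± 0.0981, antrum -0.42 ± 0.0984) fell. Prdx1 and Prdx3 rose in antrum (log2 0.25 ± 0.0844 and 0.17 ± 0.0531; in corpus 0.17 ± 0.0844 and 0.11 ± 0.0529, not passing). The balance of this list turned with scaling: 1 rose and 4 fell in corpus with total counts, and in antrum 2 rose and 4 fell with upper quartile scaling and 2 and 3 with total counts, where 4 of the 9 antral calls were kept. In antrum 2 rose and 1 fell without inhibited line 8025 or 8028 (3 of 9 kept), 3 and 2 without inhibited line 8026, and 3 and 1 without vehicle line 8025 or 8026. In corpus, adding the line as a block or leaving out inhibited line 8028 gave 3 rises and 4 falls. The superoxide dismutase and catalase list had 4 measured genes. They were Sod1, Sod2 and Cat, whose enzymes remove superoxide and hydrogen peroxide, and the copper chaperone Ccs. Cat alone rose (corpus 0.43 ± 0.137, adjusted p = 0.0343, and antrum 0.49 ± 0.137, 0.0192), and its corpus call was lost with total counts and without inhibited or vehicle line 8025 or 8026. The antral call was lost without inhibited line 8025 and without vehicle line 8025 or 8026.

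Of 11 genes of NADPH supply and the pentose phosphate pathway, G6pdx among them, corpus had 5 that rose and 1 that fell, and antrum 6 and 1 (medians 0.32 and 0.25). Pgd, which makes NADPH in the same pathway, rose by 0.75 ± 0.0623 in corpus (adjusted p = 9.75e-06) and 0.68 ± 0.0622 in antrum (1.69e-05), Tkt, transketolase, by 0.35 ± 0.0677 and 0.44 ± 0.0678, Taldo1, transaldolase, by 0.32 ± 0.0858 and 0.35 ± 0.0859, and Me1, malic enzyme, by 0.61 ± 0.174 and 0.80 ± 0.174. The mitochondrial dehydrogenase Idh2 fell (corpus -0.26 ± 0.0913, adjusted p = 0.0489; antrum -0.27 ± 0.0913, 0.0439). With total counts 2 rose and 2 fell in corpus, and without vehicle line 8026 there were 3 rises and no fall. Of 12 heme and iron genes, Hmox1 included, 5 rose and 1 fell in each region (medians 0.21 and 0.29); with total counts 2 rose and 1 fell in corpus. The ferritin chains Fth1 (corpus 0.70 ± 0.0943, antrum 0.83 ± 0.0945) and Ftl1 (corpus 0.49 ± 0.14, antrum 0.61 ± 0.141), which store iron, the porphyrin transporter Abcb6 (corpus 0.81 ± 0.0861, antrum 0.89 ± 0.087) and Blvra, biliverdin reductase (corpus 0.28 ± 0.0726, antrum 0.33 ± 0.0731), rose. The iron exporter Slc40a1 fell in corpus (-0.95 ± 0.17, adjusted p = 0.00156) and was at -0.32 ± 0.17 in antrum (0.173). Ferritin genes have many pseudogene copies, so their counts are uncertain.

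Among 20 regulators and partners of NRF2, including Nfe2l2 and Keap1, corpus had 7 that rose and 2 that fell, and antrum 4 and 3 (medians 0.14 and 0.08). The antral shares, 20% up and 15% down, were near those of all tested genes, and with total counts 4 rose and 3 fell in corpus. Sqstm1, the p62 adaptor that can draw KEAP1 into autophagy and is itself an NRF2 target, rose (corpus 0.74 ± 0.102, adjusted p = 0.000276; antrum 0.61 ± 0.102, 0.00099). Mafk, a small MAF partner, rose by 0.52 ± 0.0731 in corpus and 0.43 ± 0.0733 in antrum, and the related factor Nfe2l1 by 0.63 ± 0.108 and 0.41 ± 0.108. Bach1, a repressor that competes with NRF2 at its elements, averaged 30.6 ± 1.28 CPM in inhibited and 42.9 ± 1.16 CPM in vehicle corpus (log2 -0.49 ± 0.0706, adjusted p = 0.000376), and 32.1 ± 2.51 CPM in inhibited and 39.8 ± 1.76 CPM in vehicle antrum (-0.31 ± 0.0708, 0.0068). Bach2 also fell, from a low level (corpus -1.65 ± 0.294, antrum -1.71 ± 0.308).

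Nqo1 also belongs to the targets of the aryl hydrocarbon receptor, a sensor of dietary and foreign aromatic compounds. Of 8 measured genes on that list 6 rose in each region and none fell. Those that did not pass were Ahr, the receptor itself, and its partner Arnt, so every measured target on the list rose. Aldh3a1 was at 2.46 ± 0.177 in corpus and 3.30 ± 0.184 in antrum. Cyp1a1 was at 35.8 ± 15 and 41.9 ± 8.73 CPM in inhibited corpus and antrum, against 0.0395 ± 0.0684 and 0.0527 ± 0.0649 CPM with vehicle. Tiparp rose by 1.38 ± 0.166 in corpus and 1.63 ± 0.168 in antrum, and Ahrr by 3.84 ± 0.435 and 4.30 ± 0.45. Aldh3a1 was also lower in antrum than in corpus with vehicle, at 66.1 ± 15.8 CPM in antral and 146 ± 14.5 CPM in corpus vehicle libraries (log2 -1.14 ± 0.172, adjusted p = 0.0412), a call lost without vehicle line 8025 or 8026 of either region.

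Slc7a11 and Chac1 are targets of ATF4 too, the factor of the amino acid and unfolded protein responses. Of 14 genes on that list corpus had 5 that rose and none that fell (median 0.24), and antrum 1 and 3 (median -0.05). Atf4 rose in corpus by 0.54 ± 0.0923 (adjusted p = 0.00115) and was at 0.20 ± 0.0921 in antrum (0.118), and Trib3 rose in corpus by 0.95 ± 0.184 and was at 0.15 ± 0.183 in antrum (0.578). The amino acid transporter Slc7a5 and the serine-synthesis enzyme Psat1 fell in antrum (log2 -0.52 ± 0.0994 and -0.47 ± 0.112). In corpus 3 rose with total counts or without inhibited line 8026 or vehicle line 8025, and 8 without inhibited line 8028. In antrum none rose and 2 fell without inhibited line 8025 or vehicle line 8025 or 8026. Fits of the 6 libraries of a region alone gave 3 rises and no fall in corpus, and 4 rises and 4 falls in antrum. The difference between regions in the response did not pass for Atf4 (log2 -0.33 ± 0.13, adjusted p = 1) or Trib3 (-0.80 ± 0.259, 1). Of 12 genes linked to ferroptosis, the iron-dependent cell death that glutathione and Slc7a11 oppose, 3 rose and 3 fell in each region (medians -0.04 and -0.01). In corpus 1 rose and 2 fell without inhibited line 8026 or vehicle line 8026, and in antrum likewise without inhibited line 8025 or 8026 or vehicle line 8025 or 8026. Acsl4, which loads membranes with oxidizable lipids, fell (corpus -0.44 ± 0.0858, antrum -0.45 ± 0.086), as did Alox12, a lipoxygenase (corpus -3.28 ± 0.319, antrum -2.32 ± 0.287). Alox12 was low throughout, at a mean of 0.365 and 0.827 CPM in inhibited corpus and antrum, against 3.57 and 4.19 CPM with vehicle. Tfrc, the transferrin receptor, fell in antrum (-0.31 ± 0.0961, adjusted p = 0.0312), and Ptgs2 rose there (0.98 ± 0.258, 0.0145).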

How the data were processed

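PolyA-selected RNA of 12 libraries was measured. The deposited table gives expected counts per gene, named so by the authors in it; all values were whole, so rounding changed nothing. Per the submitters' processing notes, the tools were STAR 2.7.8a, RSEM 1.3.3, cutadapt 2.3 and FastQC 0.11.8, and the build was GRCm38. Whether counting used strand, and which annotation release it used, is not given in the sources used here. Overlapping and antisense genes cannot be told apart, and near-identical copies are uncertain. Of 55426 rows, 5 transgene rows with 2 counts were left out.

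The test was that of edgeR 4.0.16 under R 4.3.3, with TMM scaling, filterByExpr, and a robust quasi-likelihood fit of 4 groups with 8 residual degrees of freedom, two-sided, with Benjamini-Hochberg adjustment over 16152 genes at 0.05. CPM values use TMM-scaled totals; 95% intervals use the standard error and 8 degrees of freedom. The test was also run on simulated counts. They had the same spread in all groups and no line effects, so that run cannot show how the test behaves on groups as uneven as these. No pair of libraries of a group agreed within sampling noise. Gene positions and exon lengths are from GENCODE mouse release 21 (GRCm38), in which 55240 identifiers were found.

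All 10 members are named. From each of the 11 lists, up to 3 other genes with the smallest adjusted p in corpus and up to 2 more in antrum are named. Likeness values are given for the 5 nearest and 2 most opposite genes; the most opposite genes over the levels are not reported here. Members and lists were chosen with earlier results of these data known.

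Line numbers pair the inhibited and vehicle libraries of a region, since the labels' protocols treat the same lines both ways; the 6 pairs deviated together from the group means (r = 0.157 to 0.544). Libraries of the same number in different regions (r = -0.104 to 0.277) were not treated as pairs, except with the line as a block in the comparisons between regions. There, libraries of the same number shared an effect across regions, although the labels do not say that they pair.

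Other settings tried were scaling by RLE, by the upper quartile and by total counts, TMM with ribosomal-RNA-like genes removed, testing with DESeq2 1.42.0 or limma-voom (limma 3.58.1), the filter replaced by none or by 1 CPM in at least 3 libraries, line as a block, fits on the 6 libraries of a comparison, and fits without single libraries or lines. List counts under these were added after seeing the data.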

Additional observations from a re-analysis of the deposited data

How the results depend on the processing

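Nfe2l2, Srxn1 and Gpx2 passed in both regions under all alternatives tried, and no member changed direction in either treatment comparison. In corpus 4 members passed with total counts, where the whole table shifted down; leaving out a library or line gave 4 to 10 members and 2550 to 6888 genes in all. In antrum, leaving out a library or line gave 2710 to 4207 genes, and without the vehicle libraries of lines 8025 and 8028 there were 2740 genes, where the 1 vehicle library left borrows its spread from the remaining groups; Hmox1 (log2 1.66, adjusted p = 0.0222) and Gclm (0.64, 0.0159) then passed. In the paired analysis with the line as a replicate block, 9 members passed in corpus, without Hmox1, and 7 in antrum, with Gclm added; the block changed no other call among the members.

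Counts between regions depended on the setting far more. In vehicle they were 17 with RLE, 18 with upper quartile, 61 with total counts, 68 without a low-count filter, 497 with DESeq2, 21 with limma-voom, 69 with the block, 18 with only the 6 libraries, 2 without antral vehicle lines 8025 and 8028, and 1 to 1080 on leaving out a library or line. After inhibition they were 3 with upper quartile, 3 with total counts, 16 without a filter, 149 with DESeq2, 37 with the block, 0 with only the 6 libraries (where fewer samples enter) and 0 to 2386 on leaving out, with 0 to 4 members called. For the difference in response, DESeq2 gave 9 genes, the block 7 and leaving out 0 to 5. The cause was not tested. In vehicle and after inhibition, the block joined libraries of the same number across regions, which the labels do not pair.

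Signs turned only where the members did not pass. For antrum over corpus in vehicle, total counts gave log2 -0.046 for Gpx2, -0.042 for Keap1 and -0.096 for Srxn1, and Srxn1 was -0.003 without a filter, -0.028 with limma-voom, -0.005 with the block and -0.414 without antral vehicle lines 8025 and 8028; leaving out gave -0.089 to 0.013 for G6pdx, -0.317 to 0.295 for Hmox1, -0.219 to 0.007 for Slc7a11 and -0.201 to 0.175 for Srxn1. For the difference in response, total counts gave 0.042 for G6pdx, 0.094 for Gclc, 0.045 for Gclm and 0.011 for Txnrd1, and Gclc was 0.135 with limma-voom and 0.131 with the block. Without antral vehicle lines 8025 and 8028 it was 0.849 for Gclc, 0.244 for Gclm, 0.647 for Hmox1, 0.143 for Slc7a11, 0.301 for Srxn1 and 0.095 for Txnrd1. Leaving out gave -0.149 to 0.004 for G6pdx, -0.315 to 0.326 for Gclc, -0.2 to 0.081 for Gclm, -0.297 to 0.087 for Srxn1 and -0.183 to 0.02 for Txnrd1. With 3 lines per group, differences of Gclc and Hmox1 between regions were the least precise; depth was ample, with at least 1394 counts per member and library.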
